A study of Mus musculus with 2 samples.

Results

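The cells described here were Barx1-positive mesenchymal cells of the embryonic mouse pancreas that carried no UMI of the spleen genes Tlx1 and Nkx2-5. A UMI (unique molecular identifier) counts 1 captured RNA molecule. Members were droplet barcodes with at least 2000 UMIs, under 10% mitochondrial UMIs and at least 10 UMIs of Col1a1, Col1a2 and Col3a1 per 10000. They had at most 1 UMI of the mesothelial genes Upk3b, Upk1b, Lrrn4 and Msln, at most 2 of the epithelial genes Epcam and Cdh1, 0 of Tlx1 and Nkx2-5, and at least 2 of Barx1. The rule selected 627 of 46917 barcodes, of which 542 of 30209 were in the Control library and 85 of 16708 in the Null library.

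Droplet single-cell RNA-seq was performed on dissociated E14.5 pancreas sorted for live cells. The Control library pooled 8 pancreata of Fgf9 +/+ and Fgf9 +/- embryos, and the Null library pooled 3 pancreata of Fgf9 -/- embryos, in which a LacZ cassette sits in the Fgf9 locus. Both pools came from 3 litters on the C57BL/6J background. The Null allele was present in every cell of the embryo, inside and outside the pancreas, and Fgf9 +/- embryos carried the same allele in the Control pool. With 1 library for each genotype there is no replicate, so no test between genotypes or cell classes was possible and no p-value is given. Intervals in brackets are exact 95% intervals (Poisson for levels, conditional Poisson for ratios, Clopper-Pearson for shares) and give the counting error alone and leave out the spread among embryos and dissociations.

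Barx1 (chr13:48662998-48666507, plus strand, GRCm38) encodes a homeobox factor of the stomach mesenchyme, where it limits Wnt signalling through the secreted antagonists Sfrp1 and Sfrp2 and so favours gastric over intestinal epithelium. Tlx1 and Nkx2-5 mark the spleen primordium, which develops in the same dorsal mesenchyme next to the pancreas and stomach. Fgf9 is a secreted growth factor made mainly by mesothelium and epithelium and received by FGF receptors on the mesenchyme.

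The libraries held 339959625 UMIs in Control and 271129120 in Null. Members had a median of 9677.5 UMIs in Control (2108 to 35646) and 18999 in Null (3247 to 49407). No barcode sequence was shared between libraries among members, against 180 among all barcodes. The sexes were not balanced, since Xist stood at 450 CPM in Control members and at 0 UMIs in Null members. Levels are given as CPM, UMIs of a gene per 1000000 UMIs of a class, leaving out mitochondrial and haemoglobin genes. A doublet caller marked 1 of 542 Control members and 0 of 85 Null members.

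Fgf9 itself was scarce in members. It stood at 11.1 CPM in Control (8.44 to 14.2, 60 UMIs) and 3.56 CPM in Null (1.31 to 7.75, 6 UMIs). The Barx1-positive barcodes with more than 1 mesothelial UMI held 126 CPM in Control and 78.9 CPM in Null. Fgf9 UMIs therefore persisted in the Null library. The sources used here do not give which part of the locus the cassette replaces, so this count does not check the genotype.

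Members made up a smaller share of the mesenchyme in the Null library. Of the barcodes that passed every gate but the ones on Tlx1, Nkx2-5 and Barx1, members were 542 of 2252 in Control, or 24.1% (22.3 to 25.9), and 85 of 840 in Null, or 10.1% (8.16 to 12.4). Cells with a Tlx1 or Nkx2-5 UMI were 19.0% in Control and 2.02% in Null. Cells with no UMI of the 3 genes were 46.9% in Control and 81.4% in Null, and those with a single Barx1 UMI were 9.95% and 6.43%. The member share was lower in Null although its mesenchyme was sequenced more deeply. With the Barx1, Tlx1 and Nkx2-5 counts scaled to 2000 UMIs per cell, the expected member share was 6.29% in Control and 1.10% in Null. The collagen, mesothelial and epithelial gates stayed at full depth, so depth was not made equal for the whole rule.

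**Figure D1:**
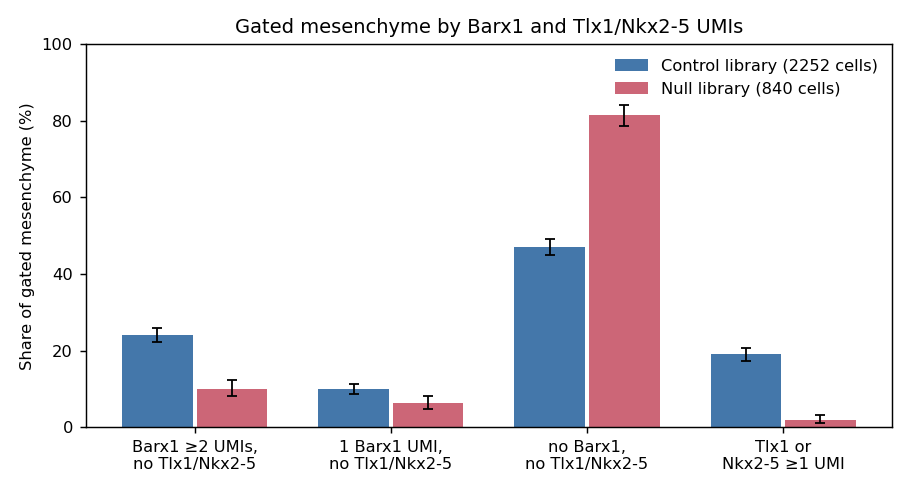
Share of gated mesenchymal barcodes (percent, y axis) in 4 classes, by library, with exact 95% binomial intervals for counting error. Members were 24.1% of 2252 barcodes in Control and 10.1% of 840 in Null.

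These shares rest on the gates and on what was dissociated and sorted. The gate on epithelial UMIs kept 70.4% of the barcodes it was applied to in Control and 86.1% in Null. The gate on mesothelial UMIs went the other way, at 78.7% and 67.3%, and the collagen gate kept 24.9% and 18.1%. Whether these gates bear on the member share was not tested.

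Members were chosen by their UMI counts of Barx1, Tlx1, Nkx2-5 and the collagen, mesothelial and epithelial genes, so these levels are given as a description. Members carried 2 to 15 Barx1 UMIs in Control (median 4) and 2 to 34 in Null (median 3). Their summed level was 442 CPM in Control and 252 CPM in Null. Spleen-type cells, meaning those with a Tlx1 or Nkx2-5 UMI, had 85.2 and 23.6 CPM. At least 2 Barx1 UMIs were also seen in 2.38% of epithelial barcodes in Control (median 22785 UMIs) and 0.137% in Null (median 33917). At the threshold, the 143 Control members with exactly 2 Barx1 UMIs had 121 CPM of Sfrp2 and 61.6 CPM of Isl1, against 85.3 and 55.0 CPM in the 224 cells with 1 UMI. The 51 Control members with 1 mesothelial UMI had 145 CPM of Wt1 and 1174 CPM of Igfbp5, against 186 and 1433 CPM in the 48 barcodes just outside with 2 such UMIs.

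The label of the class was checked against its other markers. The mesenchymal marker genes summed to 5894 CPM in Control members and 6843 CPM in Null members. Col3a1 was part of the rule. Rgcc (a cell-cycle regulator) and Lpar1 (a lysophosphatidic acid receptor) did not set Control members apart from the other mesenchyme. Rgcc stood at 47.2 CPM in members, 60.0 CPM in cells lacking Barx1 and 72.0 CPM in spleen-type cells. Lpar1 stood at 139, 124 and 155 CPM in the same classes. In Null members Rgcc was at 12.5 CPM and Lpar1 at 50.4 CPM, so the class is called here by its rule and not by these markers.

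Markers of other cell types were also found, and acinar RNA was in every member. Mesothelial markers summed to 116 CPM in Control members and 66.5 CPM in Null members, against 1394 and 1251 CPM in the mesothelial-side barcodes. At least 3 UMIs of mesothelial markers were found in 64 Control members (11.8%) and 16 Null members (18.8%). Leukocyte markers summed to 76.1 CPM in Control, where 11 members (2.03%) carried at least 3 such UMIs, and to 9.49 CPM in Null, where 1 member did. Barcodes with at least 3 such UMIs are called leukocyte-marker barcodes below. Acinar genes summed to 2741 CPM in Control members, 21.8% of the level over the whole library, and to 1225 CPM in Null members, 5.43% of that level. At least 3 acinar UMIs were in 100% of members of both libraries. Endocrine markers stood at 821 and 287 CPM, epithelial markers at 350 and 129 CPM, pericyte markers at 333 and 359 CPM and visceral smooth muscle markers at 436 and 826 CPM. In Null members Neurog3, Pecam1, Ptprc, Cd52, Tubb3 and Foxd3 were at 0 UMIs, and in Control members Foxd3 was.

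The first comparison asked what else distinguished members from mesenchyme of the same library with no Barx1 UMI. In Control, members had more RNA of the LIM-homeobox factor Isl1, of the Wnt antagonist Sfrp2, of the retinoic acid-binding protein Crabp1 and of several matrix and growth factor genes. Isl1 (chr13:116298281-116309689, minus strand) was at 89.6 CPM in members and 33.7 CPM without Barx1, a log2 ratio of 1.41 (1.19 to 1.64). Sfrp2 (chr3:83766321-83774316, plus strand) was at 153 and 52.5 CPM (log2 1.54, 1.37 to 1.72). Crabp1 was at 98.0 and 35.8 CPM (log2 1.45, 1.24 to 1.67). The smooth muscle genes Myh11 and Actg2 and the gut and spleen homeobox gene Nkx2-3 were lower in members. A fold of 2 was used as the threshold, and 6483 genes were measured, meaning at least 50 UMIs over both classes and 20 CPM in the higher.

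Few genes passed that fold. Of the 6483, 58 were higher (0.895%) and 9 lower (0.139%), 1.03% in either direction, and the median log2 ratio was 0.02. Averaging over cells in place of summing gave 54 higher and 44 lower. Several of the genes furthest apart belonged to blood cells. Cpa3, Cma1 and Hdc, which mast cells make, and S100a8, S100a9 and Srgn of myeloid cells were higher in Control members, and at least 92.6% of their member UMIs came from the 11 barcodes with leukocyte markers. Cpa3, for example, had 603 UMIs in members and 3 in cells lacking Barx1. Without leukocyte-marker barcodes, 49 genes were higher and 9 lower.

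The other genes ranked first among the higher ones were not blood cell genes. Igfbp5, which binds insulin-like growth factors, was at 340 CPM in members and 105 CPM without Barx1 (log2 1.69, 1.57 to 1.82). Igfbp7 was at 71.1 and 20.7 CPM (log2 1.78). Mgp, an inhibitor of matrix calcification, was at 137 and 41.1 CPM (log2 1.74). With cells thinned to 2000 UMIs the Mgp ratio was 0.07. Thinning redrew both classes by their thinned counts and left 139 members, so these ratios compare different sets of cells. Cav1, the caveolar coat protein, was at 65.6 and 13.9 CPM (log2 2.24), and the prostaglandin D synthase Ptgds at 21.2 and 2.37 CPM (log2 3.16).

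Some of these ratios moved with mesothelial markers. With barcodes carrying other mesothelial markers left out, the log2 ratio was 0.27 for Ptgds, 0.45 for Cav1 and 0.91 for Igfbp5. It was 1.25 for Isl1, 1.36 for Sfrp2, 1.01 for Crabp1, 1.83 for Igfbp7 and 1.65 for Mgp. The count without them was 38 higher and 10 lower.

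The 9 genes lower in Control members were Myh11, Actg2, Ebf2, Nkx2-3, Pid1, the gastrin gene Gast, Ckb, Nrxn3 and Slco3a1. Myh11, smooth muscle myosin heavy chain, was at 8.66 CPM in members and 41.4 CPM without Barx1 (log2 -2.26). Actg2, enteric smooth muscle actin, was at 10.9 and 39.4 CPM (log2 -1.86). Few cells carried these UMIs: 12 of 542 members and 14 of 1057 cells lacking Barx1 for Myh11, and 16 and 27 cells for Actg2. At least 3 UMIs over all visceral smooth muscle markers were found in more members (34.9%) than cells lacking Barx1 (22.0%), at unequal depth. Nkx2-3 was at 32.4 and 72.7 CPM (log2 -1.16), Ebf2 at 6.08 and 21.6 CPM (log2 -1.83), and Pid1 at 40.0 and 87.6 CPM (log2 -1.13). With cells lacking Barx1 but holding Mgp left out of the reference, Myh11 was at -0.56 and Actg2 at -0.50.

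Few genes of the pathway groups passed 2-fold. Of 8 measured retinoic acid genes, 3 were higher past 2-fold and all 8 were above 0, with a median log2 ratio of 0.32 against 0.02 over all genes. Besides Crabp1, these were the retinal reductase Dhrs3 (21.6 against 5.85 CPM, log2 1.88) and the retinaldehyde dehydrogenase Aldh1a2 (30.6 against 13.8 CPM, log2 1.15). Aldh1a2 turned to -0.50 without barcodes holding other mesothelial markers, and then 1 of 6 measured genes was past 2-fold. Of 14 cytokine and growth factor genes, 3 were higher past 2-fold (median 0.20): Igfbp5, Igf1 at 483 and 228 CPM (log2 1.08) and the lymphangiogenic factor Vegfd at 29.5 and 11.8 CPM (log2 1.32). Of 21 matrix genes, 2 were higher past 2-fold and 18 were above 0 (median 0.28), with the fibril-associated collagen gene Col14a1 at 196 and 78.7 CPM (log2 1.31).

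Of the FGF and Wnt genes, Sfrp2 alone passed 2-fold. Of the FGF receptors only Fgfr1 was measured, at a log2 ratio of -0.01. Of 6 FGF and ERK response genes none passed 2-fold and none was above 0 (median -0.13). Of 4 Wnt antagonists 1, Sfrp2, passed 2-fold and all 4 were above 0 (median 0.38), while 5 Wnt target genes were all below 0 without passing (median -0.09). All 3 Wnt ligands and all 5 hedgehog genes were above 0 without passing (medians 0.44 and 0.30). No FGF ligand was measured. Of 5 BMP genes 3 were above 0 (median 0.56), of 6 TGF-beta genes 1 (median -0.17), of 11 basement membrane genes 4 (median -0.10) and of 7 lysophospholipid receptor and pathway genes 5 (median 0.16). Of 8 Hox genes 5 were above 0, and of 17 axon guidance genes 9, none past 2-fold. Of 15 transcription factor genes, 1 was higher and 1 lower past 2-fold, Isl1 and Nkx2-3.

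**Figure D2:**
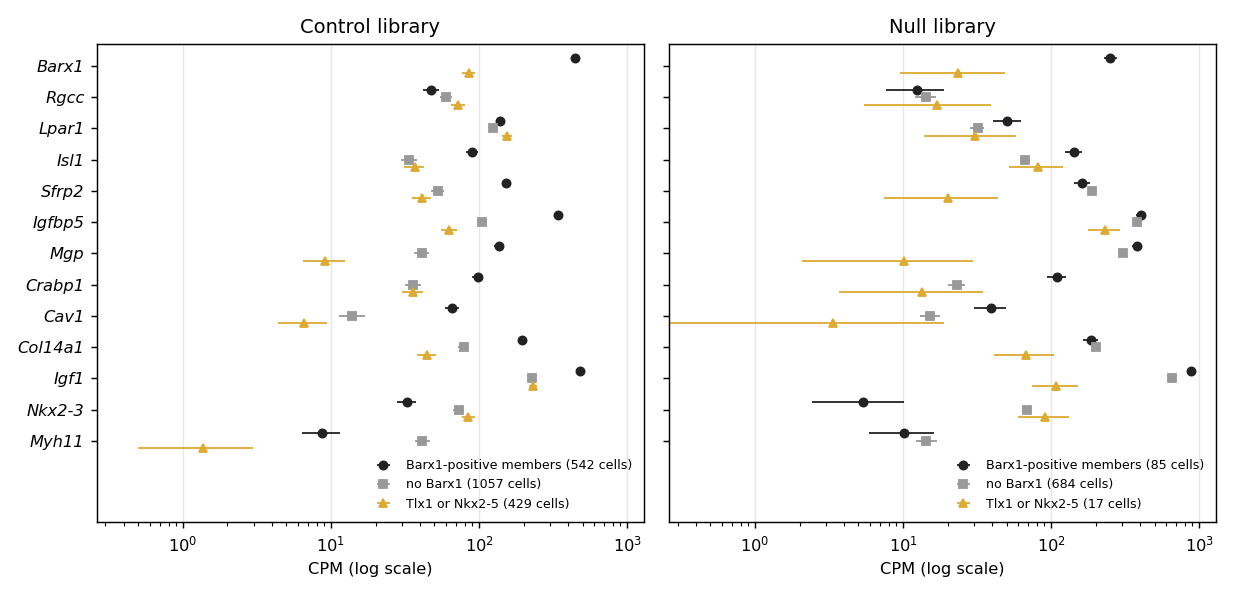
Level of 13 genes (CPM, logarithmic axis) in members, in mesenchyme with no Barx1 UMI and in cells with a Tlx1 or Nkx2-5 UMI, with Control and Null in separate panels; lines are exact 95% Poisson intervals, and a gene with 0 UMIs in a class has no point. Isl1 and Crabp1 were higher in members than in cells lacking Barx1 in both panels, while the Sfrp2 points lie apart in Control (153 and 52.5 CPM) and close together in Null (161 and 190 CPM).

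In the Null library members were set apart from mesenchyme lacking Barx1 by Isl1 and Crabp1 again, but not by Sfrp2, Igfbp5 or Col14a1. Isl1 was at 142 CPM in members and 66.9 CPM without Barx1 (log2 1.09, 0.87 to 1.30), and Crabp1 at 109 and 23.0 CPM (log2 2.24, 1.96 to 2.53). Sfrp2 was at 161 and 190 CPM (log2 -0.23), Igfbp5 at 402 and 381 CPM (log2 0.08) and Col14a1 at 185 and 202 CPM (log2 -0.13). Whether these ratios differ between genotypes was not tested, as each rests on 1 library.

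Of 6622 measured genes, 26 were higher (0.393%) and 46 lower (0.695%), and the median was 0.03. Among the higher genes were the metalloprotease gene Adamts19 at 83.7 and 15.7 CPM (log2 2.42), the membrane lectin gene Chodl at 45.1 and 12.2 CPM (log2 1.89), Fibin at 61.1 and 19.0 CPM (log2 1.69), and Egfl6 at 84.8 and 39.3 CPM (log2 1.11). Cav1 was at 39.2 and 15.2 CPM (log2 1.37). Over both libraries Cav1 was far higher in the members richest in mesothelial markers (cluster 3 below) than in the others. Among the lower genes, Nkx2-3 had 9 UMIs and 5.34 CPM in members against 68.5 CPM without Barx1 (log2 -3.68, -4.82 to -2.75). The vessel-stabilising ligand gene Angpt1 was at 20.8 and 77.8 CPM (log2 -1.91), the matrix gene Postn at 55.8 and 137 CPM (log2 -1.29) and the neurotrophin receptor gene Ntrk2 at 7.12 and 24.3 CPM (log2 -1.77). Neutrophil genes such as S100a8, Ngp and Camp also counted as lower, and at least 97.9% of their UMIs in cells lacking Barx1 lay in at most 6 leukocyte-marker barcodes. Without such barcodes the split was 25 higher and 28 lower, and with free RNA subtracted it was 48 and 54.

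Against spleen-type cells in Control, members had more Mgp, Cav1, Igfbp5 and Col14a1 RNA. Of 6507 measured genes, 92 were higher in members (1.41%) and 15 lower (0.231%), with a median of -0.01. Mgp was at 137 CPM in members and 9.06 CPM in spleen-type cells (log2 3.92), Cav1 at 65.6 and 6.57 CPM (log2 3.32), Igfbp5 at 340 and 62.8 CPM (log2 2.44) and Col14a1 at 196 and 44.2 CPM (log2 2.15). These ratios include members with mesothelial RNA. The 51 Control members with 1 mesothelial UMI had 1174 CPM of Igfbp5. Over both libraries, the cluster of members richest in mesothelial markers (cluster 3 below) had 395 CPM of Cav1, against 14.5 CPM in the other members. Of 21 measured matrix genes 6 were higher past 2-fold, none was lower, and the median was 0.41. Isl1 (log2 1.29), Sfrp2 (1.89), Crabp1 (1.46) and the gut endoderm and mesoderm factor gene Gata6 (58.2 and 27.0 CPM, log2 1.11) were also higher, as was the semaphorin receptor gene Nrp2 at 38.3 and 7.48 CPM (log2 2.36).

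The genes lower than in spleen-type cells included Kazald1 at 4.05 and 39.0 CPM (log2 -3.26), Syt6 at 12.7 and 43.5 CPM (log2 -1.77), Slitrk5 at 14.0 and 40.3 CPM (log2 -1.53), and the ephrin receptor gene Epha4 at 90.3 and 190 CPM (log2 -1.07). Nkx2-3 (log2 -1.39), the T-box gene Tbx3 (24.1 and 51.2 CPM, log2 -1.08) and the FGF feedback inhibitor gene Spry4 (15.9 and 32.6 CPM, log2 -1.04) were lower too. With only 17 spleen-type cells in Null this comparison was not made there.

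The members were far from Barx1-positive barcodes on the mesothelial side of the gate. Of 6848 measured genes in Control, 416 were higher in members (6.07%) and 409 lower (5.97%). Among those higher were the proteoglycan gene Lum at 200 and 2.41 CPM (log2 6.38), the paired-homeobox gene Prrx1 at 246 and 6.20 CPM (log2 5.31) and the related matrix gene Aspn at 91.8 and 1.89 CPM (log2 5.60). Lpar1 was at 139 and 16.5 CPM (log2 3.07). Mesothelial genes outside the rule were lower, such as Muc16 at 5.35 and 70.9 CPM (log2 -3.73), Gpm6a at 5.16 and 87.4 CPM (log2 -4.08) and Lhx9 (log2 -3.71). Because the rule separated these classes on mesothelial genes, genes that track them had to differ.

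The Null against Control comparison of members asked which genes differed in this class between embryos labelled Fgf9 -/- and their controls. Null members had less Ntrk2 (chr13:58806569-59133970, plus strand), Slc38a5, Wnt5a and of the retinoic acid synthesis genes Rdh10 and Aldh1a2, and more of 5 of 17 immediate early genes, of Tgfb2 and Acta2 and of 6 of 22 matrix genes. Ntrk2 stood at 94.7 CPM in Control members and 7.12 CPM in Null members (log2 -3.73). Slc38a5, an amino acid transporter gene, stood at 65.6 and 7.12 CPM (log2 -3.20), and Wnt5a, a non-canonical Wnt ligand, at 60.1 and 13.6 CPM (log2 -2.14, -2.82 to -1.53). Of 6724 measured genes, 119 were higher in Null (1.77%) and 129 lower (1.92%), 3.69% in all, and the median was 0.06. In cells lacking Barx1, 4.75% of 6604 genes passed 2-fold, 2.82% higher and 1.94% lower. Slc38a5 was lower there too, at 67.9 CPM in Control and 12.1 CPM in Null (log2 -2.49). Ranked beside it among the lower genes in those cells were the acinar gene Prss2 (log2 -2.58) and the endocrine gene Gcg (log2 -2.31). Whether the Slc38a5 RNA came from the mesenchyme or from such cells was not tested. With free RNA subtracted the members' split was 174 higher and 121 lower.

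Regulators of regional identity did not move together. Isl1 was at 89.6 CPM in Control and 142 CPM in Null (log2 0.67, 0.44 to 0.89) and Gata6 at 58.2 and 142 CPM (log2 1.28). The orphan nuclear receptor gene Nr2f1 was at 27.3 and 115 CPM (log2 2.07, 1.75 to 2.39). Nkx2-3 was at 32.4 and 5.34 CPM (log2 -2.60), Tbx3 at 24.1 and 2.97 CPM (log2 -3.02) and the Hox gene Hoxa5 at 73.7 and 36.8 CPM. Of the 15 transcription factor genes on the list, 2 were higher past 2-fold (Gata6 and Nr2f1), 2 lower (Nkx2-3 and Tbx3), and the median was 0.24.

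Among signalling genes, the Wnt antagonist Dkk2 was at 44.0 CPM in Control and 10.1 CPM in Null (log2 -2.13), and the neuregulin gene Nrg1 at 40.4 and 10.7 CPM (log2 -1.92). The retinol dehydrogenase gene Rdh10 was at 51.8 and 10.7 CPM (log2 -2.28). Aldh1a2 was at 30.6 and 2.97 CPM (log2 -3.37), or -1.91 without barcodes with other mesothelial markers. These and the retinol-binding gene Rbp4 (68.4 and 11.3 CPM, log2 -2.60) made 3 of 8 retinoic acid genes lower past 2-fold, none higher, with a median of -0.36. Fgfr1 was nearly equal at 65.4 and 68.2 CPM (log2 0.06, -0.26 to 0.37). Of 7 FGF and ERK response genes 1, Egr1, was higher past 2-fold and none lower (median 0.30), with Spry1 at 37.2 and 23.1 CPM (log2 -0.69) and Spry2 at 16.4 and 21.4 CPM (log2 0.38). Tgfb2 was at 23.0 and 80.7 CPM (log2 1.81, 1.45 to 2.17), and with Acta2 and Ltbp1 it made 3 of 9 TGF-beta genes higher past 2-fold (median 0.81).

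The higher genes in Null members also held surface and guidance receptors. The p75 neurotrophin receptor gene Ngfr was at 2.40 CPM in Control and 26.7 CPM in Null (log2 3.48), and the Slit receptor gene Robo2 at 3.50 and 33.8 CPM (log2 3.27). Adamts19 was at 16.0 and 83.7 CPM (log2 2.38), Fibin at 13.1 and 61.1 CPM (log2 2.22) and the actin-bundling gene Palld at 16.6 and 75.9 CPM (log2 2.19). Cells lacking Barx1, with 7434804 UMIs in Control and 10907975 in Null, also held more of these genes in Null. Ngfr had 23 and 141 UMIs there, Robo2 55 and 205, Adamts19 22 and 166, Fibin 43 and 201 and Palld 113 and 937. In members Acta2, the smooth muscle actin gene, was at 193 and 511 CPM (log2 1.41). Among immediate early genes, Egr1 was at 301 and 1052 CPM (log2 1.80) and Fos at 420 and 1105 CPM (log2 1.40), and 5 of 17 were higher past 2-fold with 16 above 0 (median 0.68). In cells lacking Barx1 4 of these were higher past 2-fold and the median was 0.58.

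Of 22 measured matrix genes, 6 were higher past 2-fold in Null members, against 1.77% of all measured genes, 1 was lower, 18 were above 0 and the median was 0.58. Fn1 was at 60.1 and 160 CPM (log2 1.41), Mgp at 137 and 380 CPM (log2 1.48), Lum at 200 and 420 CPM (log2 1.07) and the versican gene Vcan at 144 and 305 CPM (log2 1.09). Postn was lower at 140 and 55.8 CPM (log2 -1.33). Cells lacking Barx1 had 12 of 23 higher past 2-fold and a median of 1.10. With free RNA subtracted, 3 were higher and 1 lower in members (median 0.36).

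Sfrp2, Igfbp5 and Col14a1, which set Control members apart, differed little between the libraries in members but were higher in Null among cells lacking Barx1. In members Sfrp2 was at 153 CPM in Control and 161 CPM in Null (log2 0.08), Igfbp5 at 340 and 402 CPM (0.24), and Col14a1 at 196 and 185 CPM (-0.08). In cells lacking Barx1 the log2 ratios were 1.85, 1.86 and 1.36. Mgp was higher in Null in both classes, at log2 1.48 in members and 2.90 without Barx1.

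**Figure D3:**
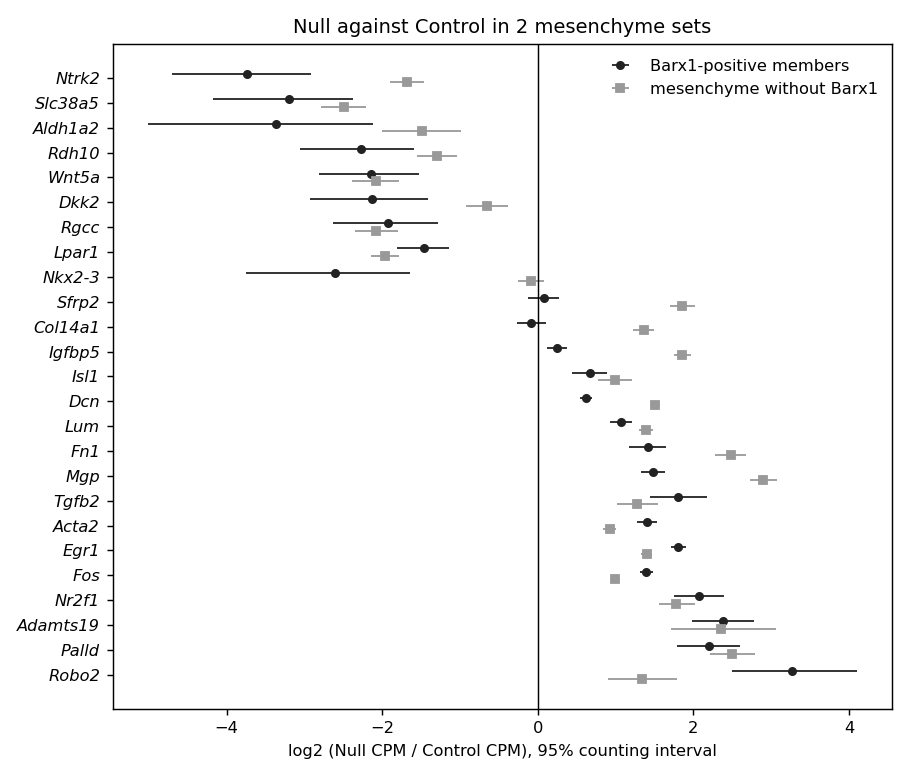
Log2 ratio of Null to Control (x axis) for 25 genes, in members and in mesenchyme with no Barx1 UMI, with 95% intervals for counting error only. Ntrk2 and Wnt5a lie below 0 in both classes, and Sfrp2 lies at 0.08 in members and 1.85 without Barx1.

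RNA of other cell types moved with the genotype in these values. Visceral smooth muscle markers, which include Acta2, summed to 436 CPM in Control members and 826 CPM in Null members, with at least 3 UMIs in 34.9% and 82.4% of cells, and their part in the Acta2 ratio was not tested. All 8 measured acinar genes were lower past 2-fold in Null members (median -1.32), as were 6 of 7 endocrine markers (median -1.60). The mast cell and myeloid genes named above were also lower in Null members, and in Control they came mainly from 11 barcodes. The depth, the sex of the embryos and the genotype cannot be told apart with 1 library for each.

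Clustering of the members gave 8 clusters, which are called by number because their leading genes come from the same values that formed them. Clusters 1, 2 and 6 held 141, 108 and 59 Control members, and 0, 0 and 1 Null members. Together they were 308 of 542 Control members (56.8%) and 1 of 85 Null members (1.18%). The extent of this group depended on the clustering resolution. At a resolution of 0.8 in place of 0.6, 3 clusters of nearly only Control cells held 306 Control members (56.5%) and 1 Null member. At 0.4 a single such cluster held 157 (29.0%) and 1 Null member. For a count of 0 in 85 cells, 3 counts of the total allow a share of up to 3.53%, and the exact interval reaches 4.25%. Cluster 1 was led by Rgcc and Osr2, with the endocrine hormone gene Pyy also among its leading genes. Cluster 2 was led by Aspn, Dkk2, Postn, Ntrk2 and Lpar1, and cluster 6 by Arhgap20, Ntrk2, Smoc2, Ogn and Wnt5a. With 1 library per genotype a cluster held by a single library may reflect that library and not a cell type.

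The other clusters held members of both libraries. Cluster 4, led by Fibin, Mgp, Dcn, Cxcl12 and Lum, held 51 Control members (9.41%) and 34 Null members (40.0%, 29.5 to 51.2). Cluster 3, with Ptgds, Bnc1, Krt19 and Cav1 in front, held 69 (12.7%) and 16 (18.8%), and its mesothelial markers summed to 600 CPM against 37.8 CPM in the other members. Its Wt1 was at 163 CPM, Igfbp5 at 1535 CPM, Cav1 at 395 CPM and Fgf9 at 63.2 CPM. Cluster 7, led by Actg2, Tagln, Ndufa4l2, Heyl and Acta2, held 30 (5.54%) and 12 (14.1%). Actg2 was found in 9 of its 42 cells. Its visceral smooth muscle markers summed to 1952 CPM against 408 CPM in the other members, and its pericyte markers to 693 against 309 CPM. Clusters 5 and 8, with mitotic and DNA replication genes in front, held 68 and 16 Control and 15 and 7 Null members.

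**Figure D4:**
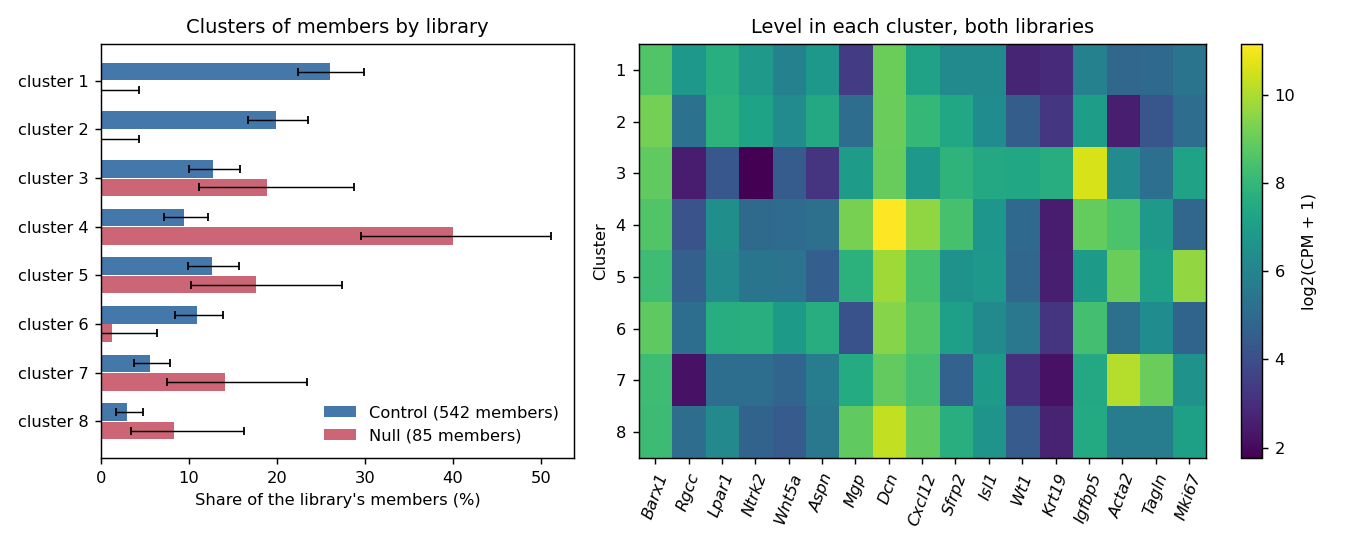
Share of members in each of 8 clusters by library (percent, with exact 95% binomial intervals), beside a heat map of log2(CPM + 1) of 17 genes in each cluster. Clusters 1, 2 and 6 hold 56.8% of Control members and 1.18% of Null members, and cluster 4 holds 9.41% and 40.0%.

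Of the label markers, Lpar1 was at 206 CPM in clusters 1, 2 and 6 and 66.6 CPM in the other Control members, and at 216 and 113 CPM for the single such cluster at resolution 0.4. Rgcc was at 72.4 and 19.5 CPM at resolution 0.6, but at 31.0 and 52.3 CPM at resolution 0.4, so its direction depended on the resolution. Over all members Rgcc was lower in Null by a log2 ratio of -1.92 (-2.64 to -1.28) and Lpar1 by -1.46 (-1.81 to -1.14). Within the 5 clusters that both libraries filled (84 Null and 234 Control members) the ratios were -0.63 (-1.44 to 0.13) and -0.42 (-0.82 to -0.04). These 5 clusters were formed from the same values and kept by their share of Null cells. Leaving out clusters 1, 2 and 6 takes away the Control members high in the genes that lead them. The smaller ratios of such genes are therefore a description and not a check.

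Other genes that were lower or higher in Null over all members were so within those 5 clusters too, by less except for Slc38a5 and Fos among those named here. The same limit holds for these ratios, since Ntrk2 and Wnt5a also lead clusters that were left out. Ntrk2 was at -2.86, Slc38a5 at -3.52, Rdh10 at -1.87, Wnt5a at -1.61 and Nkx2-3 at -2.39. Egr1 was at 1.61, Fos at 1.49, Nr2f1 at 1.35, Robo2 at 2.75 and Ngfr at 2.55. Fn1, Mgp and Acta2 were at 0.66, 0.54 and 0.46, below the values over all members. Within cluster 4 alone (34 and 51 cells), Ntrk2 was at -2.68, Slc38a5 at -3.46, Nr2f1 at 2.56, Fos at 2.39, Isl1 at 1.13, Lpar1 at -0.23 (-0.85 to 0.40) and Fn1 at 0.12.

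The Mki67 and Top2a shares did not settle whether cycling differed between the libraries. After thinning each cell to 2000 UMIs, a UMI of Mki67 or Top2a was found in 30.1% of Control members (26.2 to 34.1) and 30.6% of Null members (21.0 to 41.5). The shares were 37.4% and 31.3% in cells lacking Barx1. Endocrine barcodes, most of which do not divide, gave 19.6% and 9.40% at median depths of 15064 and 21095 UMIs, and the part of free RNA in the members' shares was not tested. The clusters led by mitotic and replication genes, 5 and 8, held larger shares of the Null members (17.6% and 8.24%) than of the Control members (12.5% and 2.95%), with overlapping intervals. Unthinned shares were 60.1% and 72.9% in members and 64.3% and 41.6% in endocrine barcodes. Of 20 G2/M genes, all 20 were above 0 in Control members against cells lacking Barx1, none past 2-fold (median 0.37). Of 18 S phase genes 7 were above 0 (median -0.01).

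The share of members with a UMI of Ntrk2 after thinning was 16.2% in Control and 1.18% in Null, against 0.826% and 1.04% in endocrine barcodes. Unthinned it was 48.2% and 11.8%. Rgcc was found in 10.9% of thinned Control members and in none of the Null members, with 0.413% and 0.313% in endocrine barcodes. Sfrp2 was found in 22.9% and 18.8% of thinned members and in 0.138% and 0.104% of endocrine barcodes, and Mgp in 10.1% and 34.1% against 0.275% and 0.209%.

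Several genes took different levels at different Barx1 levels in Control members, and these did not all recur in Null. Control members were divided into 63 with under 2 Barx1 UMIs per 10000, 202 with 2 to 4 and 277 with at least 4. Sfrp2 was at 112, 145 and 176 CPM, Isl1 at 64.1, 88.0 and 101 CPM, Igfbp5 at 219, 278 and 439 CPM and Lpar1 at 83.0, 141 and 160 CPM in that order. Mgp ran the other way, at 263, 150 and 76.6 CPM. Wt1 followed Barx1 at 21.0, 32.3 and 52.3 CPM, as did Cav1 at 45.2, 51.3 and 85.6 CPM. Mki67 was at 336, 132 and 181 CPM. Median depth also differed, at 13285, 9780.5 and 8645 UMIs. The part of depth, of mesothelial RNA and of cycling cells in these levels was not tested. In Null, the 44 members with under 2 and the 28 with 2 to 4 went the other way for Sfrp2 (156 and 85.4 CPM) and Mgp (306 and 419 CPM). Isl1 was at 140 CPM (117 to 165) and 111 CPM (83.8 to 143), with overlapping intervals. Those of Igfbp5, at 369 CPM (332 to 409) and 421 CPM (367 to 481), overlapped too.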

How the data were processed

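Counts are UMIs per gene and barcode as deposited by the authors in 10x matrices. The submitters' processing notes name Cell Ranger 6.1.1, bcl2fastq, Seurat 3.2.3 and mm10. Strand handling in counting was not given in the sources used here, so overlapping genes cannot be told apart. The matrices held 32285 genes, and 32158 (99.6%) matched GENCODE vM21, the source of the coordinates. The members and the gene lists were chosen with earlier results of these data known.

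UMIs were summed per library and class with scanpy 1.11.5 and scipy 1.17.1, and CPM left out mitochondrial and haemoglobin genes. Genes with 0 UMIs in a class were set to a floor of 3 counts. Named genes are those ranked first in each direction by the interval bound nearest 0 (12 against cells lacking Barx1, 8 against spleen-type cells, 6 against mesothelial-side cells, 10 between genotypes), without rule, mitochondrial, haemoglobin, Y-linked, Xist, Tsix and predicted genes, together with members of the gene and marker lists. Other genes, such as those leading a cluster, were chosen after their values were seen. Clustering used 1500 variable genes, 15 principal components, 15 neighbours and leidenalg 0.10.2 at resolution 0.6. Scrublet's automatic threshold of 0.625 marked 0 of 19737 Control barcodes, so 0.25 was used there and marked 373 (1.89%), and in Null 328 of 9052 (3.62%) were marked. No barcode was removed. The calculations were tested on simulated data. The alternatives tried are in the closing section.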

Additional observations from a re-analysis of the deposited data

Results flagged for a closer look

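The myeloid genes S100a8 and S100a9 went in opposite directions in the 2 libraries and in the 2 cell classes. Between Null and Control their log2 ratios were -3.88 and -3.71 in members and 6.32 and 6.0 in cells lacking Barx1. Members over cells lacking Barx1 gave 3.21 and 3.25 in Control and -6.98 and -6.45 in Null. The difference itself was not tested, since each group is 1 library. In Control members 92.6% of the S100a8 UMIs and 93.2% of the S100a9 UMIs lay in 11 barcodes with leukocyte markers, and in Null cells lacking Barx1 98.2% and 98.3% lay in 6 such barcodes.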

How the results depend on the processing

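Removals of barcodes with leukocyte markers and of those with other mesothelial markers, were chosen after seeing the data. No paired analysis was possible because each genotype is 1 library with no replicate number, and leaving out a library leaves no comparison. Thinning left 14 Null members, too few for the 20 cells a class needed, so Null comparisons have no thinned value, and the mesothelial-side comparison has none without other mesothelial markers.

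The member share kept its order, Control above Null, in the settings that moved it. It was 6.17% and 1.67% with cells thinned to 2000 UMIs, 34.0% and 16.5% with at least 1 Barx1 UMI, and 17.7% and 6.90% with at least 3, and in Control it was 29.4% with at least 5000 UMIs per cell. The counts of genes past 2-fold were 67 of 6483 and 72 of 6622 measured genes against cells lacking Barx1 (Control, Null). They were 107 of 6507 against spleen-type cells, 825 of 6848 against mesothelial-side cells and 248 of 6724 between genotypes. With a filter of 10 UMIs in place of 50 and no CPM minimum, more genes were measured. The counts in that order were then 984 of 14282, 1227 of 13980, 1100 of 13715, 2853 of 14121 and 1650 of 13210. At a fold of 1.5, with the measured genes unchanged, they were 236, 275, 306, 1519 and 796. The filter of 10 UMIs turned the near-even split between genotypes to 544 higher and 1106 lower. Thinned cells, with the classes redrawn by their thinned counts, gave 465 of 6620, 24 of 1480 and 121 of 1500 for the Control comparisons. The 465 were 136 higher and 329 lower, against 58 and 9 unthinned. Subtracting free RNA gave 205 against cells lacking Barx1 in Control and 189 against spleen-type cells. In Null, 42 of 6553 genes passed with 1 Barx1 UMI as the minimum and 119 of 6689 with Mgp-holding cells left out of the reference. Their cause was not tested.

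Log2 ratios that changed sign were those of blood cell genes and of Aldh1a2. Against cells lacking Barx1 in Control, Cpa3 was at -0.0019 thinned. S100a9 and S100a8 were at -0.71 and -0.15 with under 5% mitochondrial UMIs, -0.56 and -0.15 with at least 3 Barx1 UMIs, -0.56 and -0.45 without leukocyte markers (Srgn -0.47) and -0.58 and -0.60 without other mesothelial markers (Aldh1a2 -0.50). In Null, Ngp and Cstdc4 were at 1.32 without leukocyte markers. Against spleen-type cells S100a9 was at -0.24, -0.15, -0.18 and -0.24 in those 4 settings, Cpa3 at -0.26 without leukocyte markers and Aldh1a2 at -0.12 without other mesothelial markers. Between genotypes S100a9 was at 0.044 with under 5% mitochondrial UMIs, 0.13 without leukocyte markers (Srgn 0.64) and 0.39 without other mesothelial markers. For the genes named between genotypes, 455 of 498 values stayed within their interval, 39 moved beyond it and 4 changed sign.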
